A study of Homo sapiens with 12 samples.

Results

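A set of 1818 chromatin regions carried H3K27ac in both control clones and both CREBBP-knockout clones of a lymphoma line, and in neither EP300-knockout clone. The peaks of 6 lists that shared at least 1 base were joined into 47344 merged regions on chromosomes 1 to 22. A region was chosen if it had a peak in the 4 control and CREBBP-knockout clones and none in the 2 EP300-knockout clones. The chosen regions were 3.84% of all merged regions and 7.39% of the 24606 regions with a peak in both control and both CREBBP-knockout clones. That choice used the peaks of all 6 clones, so the absence of signal in the EP300-knockout clones and its presence in the other 4 are what defined the regions and are given as a description only.

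The cells were SUDHL4, an established line of diffuse large B-cell lymphoma of the germinal-centre type, grown in IMDM medium with fetal bovine serum. Every clone was grown from a single edited cell after CRISPR/Cas9 editing and limiting dilution, and each genotype was represented by 2 clones. The control clones N4-8 and N5-8, called WT here, were cut at PPP1R12C and were wild type for both acetyltransferase genes. The CREBBP-knockout clones CBP-E13-5 and CBP-E20-9 carried guides against exon 15 and exon 20, and the name of the first shows another exon number than its protocol. The EP300-knockout clones P300-E17-17 and P300-E24-5 carried guides against exon 17 and exon 24. All 6 clones therefore shared the editing procedure and the mutations of the parent line, and what a single clone acquired cannot be told apart from its genotype within 1 clone. The clones are named below as clone 1 and clone 2 of their genotype, in the order given.

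H3K27ac is histone H3 acetylated at lysine 27, a mark of active promoters and enhancers. CREBBP and EP300 are closely related acetyltransferases that deposit it, and both genes are recurrently mutated in lymphomas of germinal-centre origin. Germinal-centre B cells move between a dark zone, where they divide, and a light zone, where they are selected with help from T cells. FOXO1, CXCR4, S1PR2 and GNA13 are known genes of the dark-zone and confinement programme.

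Each clone had its own peak list, called against its own input, with 35054 to 46940 peaks that covered 26.1 to 35.1 Mb. The EP300-KO clones had the shortest lists and the least covered sequence, and sequencing depth per library was unknown. Covered length, the number of bases under peaks, was therefore the measure of level, and it does not record peak height. Peaks lay within 100 kb of the B-cell genes MS4A1, CD79A, CD79B, PAX5 and EBF1 in all 6 clones, and none lay there for the liver gene ALB or the plasma-cell factor PRDM1. Peaks were also present in all 6 clones around the T-cell genes CD3E, CD4 and CD8A and the myeloid genes CD14 and CSF1R. A peak within 100 kb of a gene can belong to another gene, so these peaks do not tell cell types apart. Fewer cells with a mark and a lower level of it per cell cannot be told apart in bulk chromatin.

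The chosen regions were short. Their median covered length was 379 and 333.5 bases in WT clones 1 and 2, 254 and 456 bases in CREBBP-KO clones 1 and 2, and 0 by choice in both EP300-KO clones. The 21244 regions with a peak in all 6 clones had medians of 914, 862, 783 and 948 bases in the same 4 clones. By the authors' peak score, ranked within each list, the chosen regions sat at the median percentiles 36.7, 29.5, 23.2 and 37.7, against 74.8, 71.2, 67.6 and 72.2 for the regions of all 6 clones. The chosen set therefore consisted mainly of weak and narrow acetylated sites, with 1153 of its regions below the median score of all 4 lists and 45 above the median of all 4.

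Because a peak in both CREBBP-KO clones was required, their covered length in these regions is a description of what was chosen. For example, 1479 regions with peaks in both WT clones and CREBBP-KO clone 2 and in no other clone were not eligible. The CREBBP-KO mean was below the WT mean in 929 regions and above it in 888, with a median log2 ratio of -0.01. The weakest of the 4 clones was CREBBP-KO clone 1 in 50.6% of the regions and CREBBP-KO clone 2 in 5.50%, so the 2 clones of this genotype differed from each other. Without CREBBP-KO clone 1, 3318 regions met the rule, and without EP300-KO clone 2, 2838 did.

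The threshold of the rule was a single peak. Just inside it, 548 chosen regions (30.1%) had fewer than 150 bases in their weakest clone, and 17 had the shortest peak length in the files, 99 bases. The region chr11:9664424-9666679, with 1639 and 1774 bases in WT and 2256 in CREBBP-KO clone 2, was included through 99 bases in CREBBP-KO clone 1. Just outside it were 1544 regions that had a peak in 1 EP300-KO clone, 523 in clone 1 and 1021 in clone 2. Their median in that EP300-KO clone was 181 bases, with 470 of them under 150 bases and 7 over 1000. One of them, chr11:128347899-128349228 at the B-lineage factor gene ETS1, had 1183 and 881 bases in WT, 890 and 1293 in CREBBP-KO, 0 in EP300-KO clone 1 and 99 in EP300-KO clone 2.

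Whether the pattern recurred in clones that had not been used for choosing was read by choosing on 1 clone per genotype in all 8 ways. Each way chose 2924 to 6704 regions. The EP300-KO clone that was left out lacked 67.6% to 84.0% of them, against 11.4% to 22.1% of all regions that could have been chosen. The WT clone that was left out had 67.3% to 86.4% of them, against 91.0% to 96.9% of all that could have been chosen. The left-out CREBBP-KO clone had 48.0% to 94.9%, against 84.1% to 98.8%, the low end being CREBBP-KO clone 1. The full pattern returned for 27.1% to 62.2%. The regions chosen in this way were thus missing more often from all of the left-out clones than all that could have been chosen. Only the choice asked for absence, and it did so from an EP300-KO clone. The gap for the other EP300-KO clone therefore cannot be ranked against the gaps for WT and CREBBP-KO. The same 6 lists define the set, and the chosen regions were shorter than the rest, so these shares describe the lists and are no independent support.

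The shares for the left-out EP300-KO clone were also set out by covered length in the chosen WT clone, a split added after the data were seen. Among regions of 500 to 1000 bases the left-out EP300-KO clone lacked 56.7% to 79.5% of those absent from the first, against 2.05% to 5.44% of those present in it. Among regions of 1000 to 2000 bases the shares were 46.7% to 83.9% and 0.437% to 2.40%. At 250 to 500 bases they were 68.5% to 82.9% and 4.68% to 11.5%. The first share lay above the second in these 3 classes and in the other 2, of which the longest held as few as 10 chosen regions. No such split was made for the left-out WT or CREBBP-KO clones. The part of length or list size in these shares was therefore not tested.

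The regions with most covered bases in their weakest clone were not narrow. No annotation of the files' genome build, hg19, was used, so genes are named by their approximate place on that build from general knowledge, and a named gene lies within 100 kb and is not shown to be the target. The gene names for the 10 regions in this group and for the stretches further on were added after the regions were seen. The largest by this rule was chr11:72857492-72861002 near FCHSD2, a gene for a membrane-curving adaptor protein. It had 3321 and 2754 bases in WT, 2495 and 3332 in CREBBP-KO and 0 in both EP300-KO clones. The region chr9:107680842-107683265 at ABCA1, the cholesterol exporter gene, had 2082 and 2231 bases in WT and 2295 and 2392 in CREBBP-KO. The WT and CREBBP-KO clones overlapped at the first region, and at the second the CREBBP-KO clones lay slightly above the WT clones.

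At chr20:45893901-45896786, by ZMYND8, which encodes a reader of modified histones, the CREBBP-KO clones (2838 and 2868 bases) lay above both WT clones (2015 and 1863 bases). The same order was seen at chr4:108510041-108513572 near PAPSS1, an enzyme gene of sulfate activation, with 1545 and 1478 bases in WT and 3057 and 3412 in CREBBP-KO. Neither difference passed the threshold in limma's fit over all regions (log2 difference 0.57 ± 0.13 SE, adjusted p = 0.324, and 1.09 ± 0.12 SE, adjusted p = 0.152). At chr9:114794927-114798507 near SUSD1, WT had 3262 and 3471 bases and CREBBP-KO 2016 and 3384, so the genotypes overlapped and CREBBP-KO clone 1 was the lowest.

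Further regions of this size lay at SELPLG, the gene of the selectin ligand PSGL-1 (chr12:109030600-109032976), at ARID5B, a chromatin-binding factor gene (chr10:63720305-63722463), and inside FOXO1 (chr13:41223963-41225654). The FOXO1 region had 1529 and 1499 bases in WT and 1684 and 1416 in CREBBP-KO, so the 2 genotypes overlapped. The other 2, chr20:7629588-7632040 and chr5:110252145-110253938, had no listed gene within 100 kb. The chr20 region had the best weakest score percentile of the whole set, 72.0, and no EP300-KO peak lay within 113.5 kb of it.

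**Figure D1:**
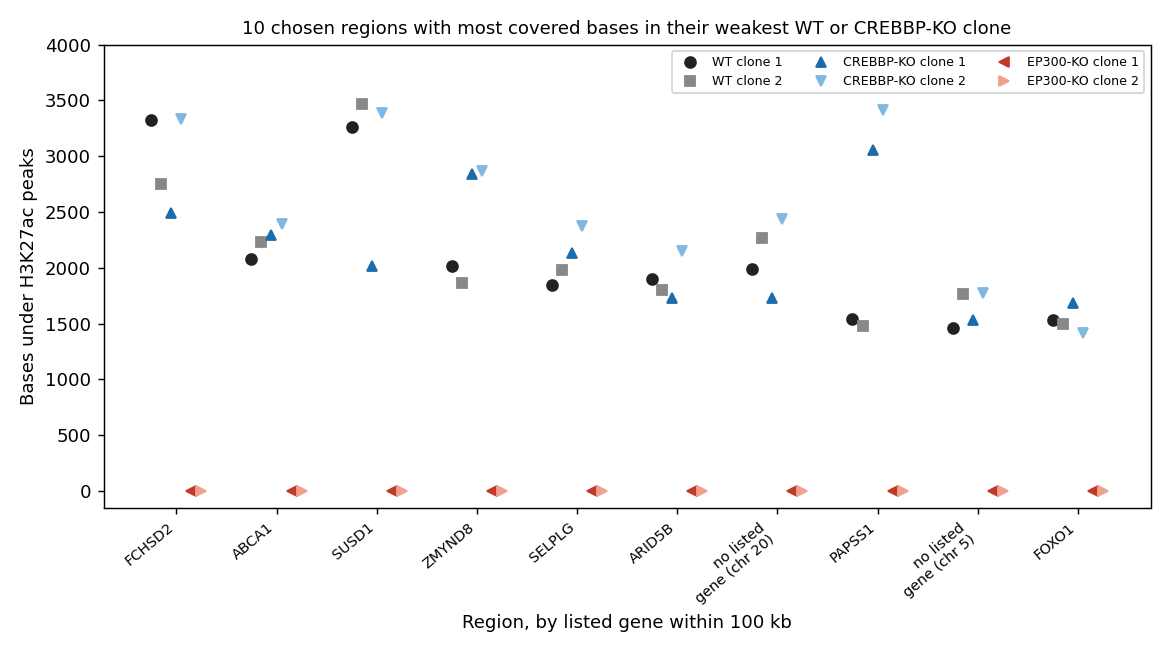
Bases under H3K27ac peaks in each of the 6 clones (vertical axis) for the 10 chosen regions with most covered bases in their weakest WT or CREBBP-KO clone (horizontal axis, by listed gene). Each symbol is 1 clone. CREBBP-KO symbols lie above the WT symbols at ABCA1, ZMYND8, SELPLG and PAPSS1 and overlap them in the other regions, and both EP300-KO symbols are at 0 by choice.

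The 5 regions with the best weakest score percentile added 2 to these. At chr12:80953302-80954359 in PTPRQ, a receptor phosphatase gene, WT had 716 and 397 bases and CREBBP-KO 603 and 1058, at percentiles from 67.2 to 98.3. The nearest EP300-KO peak was 623.6 kb away, and the 3 regions with WT and CREBBP-KO peaks at this gene were all chosen ones. At chr12:109036497-109037851 near CORO1C, which encodes an actin-binding coronin, WT had 827 and 932 bases and CREBBP-KO 781 and 1299.

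Isolation of this kind was uncommon. The median distance from a chosen region to the nearest EP300-KO peak was 1.27 kb, 800 regions (44.0%) had one within 1 kb and 374 (20.6%) had none within 10 kb. For 119 regions (6.55%) no EP300-KO peak lay within 50 kb. Closeness to acetylated sequence was general. A region of all 6 clones lay within 10 kb of 73.7% of the chosen regions, 68.9% of the regions of all 6 clones (themselves left out) and 69.6% of the regions eligible for the choice.

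The share of regions lacking EP300-KO peaks fell steeply with covered length. It was 25.2% (460 of 1827) where WT covered fewer than 250 bases on average, 14.6% (820 of 5627) at 250 to 500, 5.66% (424 of 7486) at 500 to 1000, 1.73% (105 of 6060) at 1000 to 2000 and 0.250% (9 of 3606) above. Shares by chromosome ran from 4.13% on chromosome 19 to 11.1% on chromosome 13. Length and list size move with the choice itself, and their part in these shares was not tested beyond the classes given.

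The chosen regions lay in wide acetylated domains more often than regions of all 6 clones. A domain was a run of WT peaks no more than 12500 bases apart with a joint length of 10 kb or more. Such domains held 480 chosen regions (26.4%) in both WT clones, against 13.4% of regions of all 6 clones, 21.7% of those with a peak in 1 EP300-KO clone and 3.74% of the 294 regions that showed the mirror pattern (both WT and both EP300-KO clones, neither CREBBP-KO clone). In the 4 classes under 2000 bases the share was 22.2%, 27.6%, 28.1% and 29.5% of chosen regions and 6.15%, 7.39%, 9.13% and 12.7% of regions of all 6 clones. Above 2000 bases, where only 9 regions were chosen, it was 22.2% and 31.6%. Of the 480, 279 lay in no EP300-KO domain, beside 751 of the 2848 regions of all 6 clones in WT domains. The absence of EP300-KO peaks from the chosen regions bears on that count directly.

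**Figure D2:**
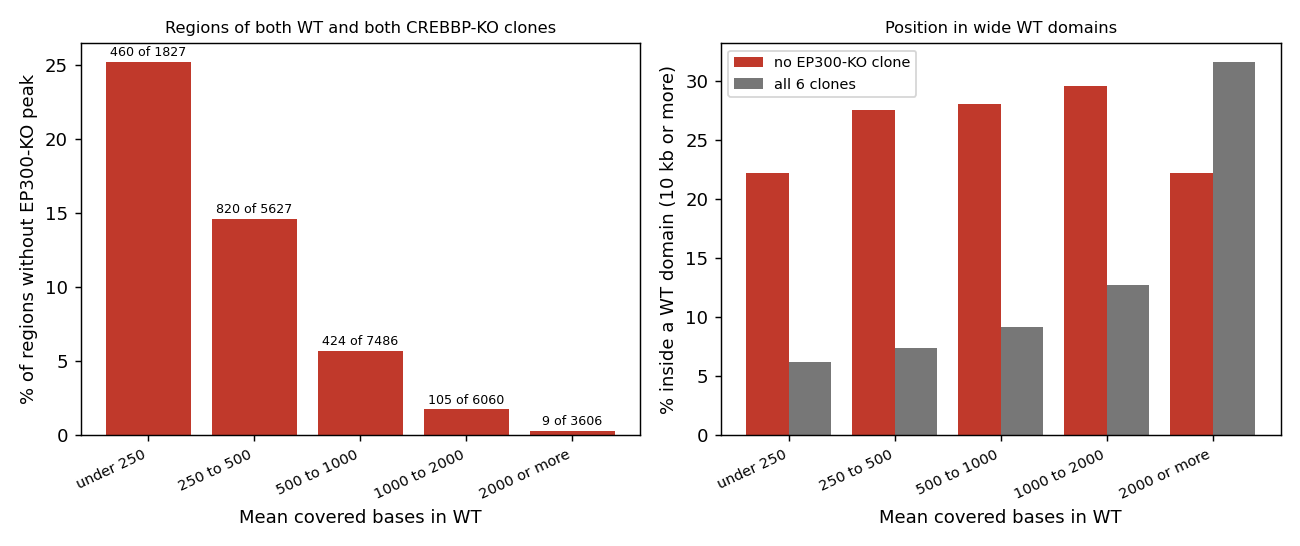
Left, the percentage of regions of both WT and both CREBBP-KO clones that had no EP300-KO peak (bars, with counts), by mean covered bases in WT. Right, the percentage of regions inside a WT domain for the chosen regions and for regions of all 6 clones. The share without an EP300-KO peak falls from 25.2% to 0.250%, and the domain share of the chosen regions is the higher one in each class under 2000 bases.

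The chosen regions also clustered. Joined across gaps of up to 50 kb they formed 1133 stretches, of which 771 held a single region and 35 held 5 or more, with 245 regions between them. The median gap to any other merged region was 0.225 kb for chosen regions and 0.23 kb for regions of all 6 clones. With gaps of 500 bases joined, 860 regions met the rule. Counts of neighbouring chosen regions, here and below, therefore depend on how peaks were joined. Within 10 kb of another chosen region lay 38.4% of the set. A chosen region was this near for 10.6% of regions of all 6 clones and 23.3% of those with a peak in 1 EP300-KO clone. It was 13.4% of all eligible regions, the chosen ones included. The stretch with most members was chr6:16305867-16512759 around ATXN1, the gene of the transcriptional regulator ataxin-1, where 13 of 31 regions with WT and CREBBP-KO peaks were chosen. The WT clones had 36.4 and 42.6 kb under peaks in that stretch, the CREBBP-KO clones 34.2 and 50.7 kb, and the EP300-KO clones 20.8 and 20.7 kb.

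Most of that difference lay outside the chosen regions. With them left out, the ATXN1 stretch kept 33.7 ± 4.80 kb under WT peaks (mean ± SD, n = 2), 36.2 ± 8.51 kb under CREBBP-KO peaks and 20.7 ± 0.0721 kb under EP300-KO peaks. At chr15:59539791-59731026 around MYO1E, an unconventional myosin gene, 11 of 18 regions were chosen, and the WT clones kept 21.4 ± 0.927 kb outside them, the CREBBP-KO clones 16.7 ± 4.41 kb and the EP300-KO clones 8.74 ± 1.00 kb. At chr6:150937043-151046400 around PLEKHG1, 11 of 24 were chosen, and the remainder for these genotypes was 29.0 ± 2.32, 30.4 ± 3.42 and 16.6 ± 0.856 kb. In all 3 stretches the 2 EP300-KO clones had less than each of the other 4. That order of EP300-KO below WT held in 53.4% of tested 100 kb windows outside the chosen regions.

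In some stretches nearly every eligible region was a chosen one. These were picked after their values were seen: 10 of 13 at chr5:124037671-124069420 around ZNF608, a zinc-finger gene, and 8 of 10 at chr11:3892277-3968976 around STIM1, the calcium sensor of the endoplasmic reticulum. At STIM1 the peaks outside the chosen regions came to 3.97 and 3.43 kb for WT, 1.69 and 3.00 kb for CREBBP-KO and 0.587 and 0.692 kb for EP300-KO. The longest runs of neighbouring eligible regions that were all chosen had 7 regions, at ZNF608 and at chr5:10562339-10602375 near ANKRD33B. The ANKRD33B run covered 5702 and 6807 bases in WT and 4667 and 6721 in CREBBP-KO.

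The gene lists used next name known B-cell programmes. Around the 42 listed genes, 56 of 499 regions with WT and CREBBP-KO peaks were chosen (11.2%, against 7.39% over all such regions), and 20 of the genes had at least 1. The 4 dark-zone genes each had at least 1 and together had 15 of 85 (17.6%), and the 6 B-lineage factor genes had 24 of 132 (18.2%). Germinal-centre factor genes had 4 of 66, receptor-signalling genes 4 of 80, light-zone and activation genes 3 of 33, survival genes 3 of 34, NF-kB genes 2 of 20 and MHC class II genes 1 of 27. Plasma-cell genes had 0 of 7 and the 3 edited genes 0 of 15. These are counts of regions that share neighbourhoods, and no test of the lists was made.

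Among dark-zone genes, FOXO1, a transcription factor of the dark-zone programme, had 9 of 35 regions chosen, from chr13:41149106-41149629 to chr13:41279817-41280612. The region chr13:41218653-41220132 in this gene had 1104 and 560 bases in WT and 1003 and 1214 in CREBBP-KO. Its neighbour chr13:41222712-41223592 had 881 and 829 in WT and 503 and 807 in CREBBP-KO. CXCR4, the chemokine receptor that holds cells in the dark zone, had 1 of 6 (chr2:136875485-136875708, 211 and 196 bases in WT, 109 and 187 in CREBBP-KO). The confinement receptor S1PR2 had 2 of 18, and GNA13, the G protein that signals from it, had 3 of 26.

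**Figure D3:**
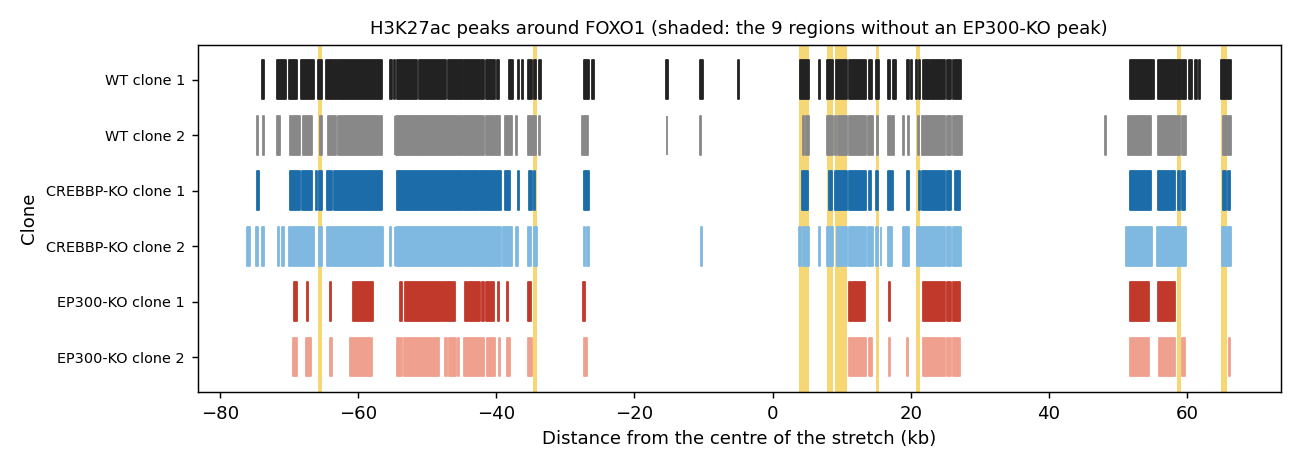
Peaks of each clone (bars, 1 row per clone) around FOXO1 by distance from the centre of the stretch in kb, with the 9 chosen regions shaded. WT and CREBBP-KO peaks run through the shaded regions, and the EP300-KO peaks between them are fewer and narrower in several places. The locus was picked for drawing after its values were seen.

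Covered length outside the chosen regions was then compared around the listed genes. With the chosen regions left out, peaks around FOXO1 came to 52.6 and 49.9 kb for WT, 48.2 and 54.7 kb for CREBBP-KO and 30.7 and 32.9 kb for EP300-KO, which is 62.1% of WT in EP300-KO and 100.4% in CREBBP-KO. The same share in EP300-KO was 53.0% around CXCR4, 73.3% around GNA13 and 77.9% around S1PR2, beside 82.1% over all tested 100 kb windows. EP300-KO values in this range were not particular to the dark-zone list. EP300-KO had 44.1% around HLA-DRA, 68.5% around CD86, 73.2% around IRF8, 73.9% around CD74 and 76.2% around PTPN6. CREBBP-KO had 48.5%, 96.1%, 87.3%, 83.6% and 88.0% around the same genes, beside 97.5% to 109.7% around the 4 dark-zone genes and 98.0% over all tested windows. These are means of 2 clones that differed. Around CXCR4 the CREBBP-KO clones had 4.98 and 8.43 kb, the first below both WT clones (7.69 and 6.06 kb). Around GNA13 they had 31.8 and 41.5 kb, against 31.3 and 35.5 kb for WT. Around the NF-kB inhibitor gene TNFAIP3, peaks came to 0.575 and 0.355 kb for WT and 0.223 and 0.242 kb for EP300-KO. CREBBP-KO had 0.183 and 0.325 kb there, 54.6% of WT. HLA-DRA, IRF8, CD74 and TNFAIP3 had no chosen region, but HLA-DRA and TNFAIP3 had only 1 eligible region each. At these 4 genes each EP300-KO clone had less than each WT clone, as they did in 53.4% of windows. Around the 4 dark-zone genes, 51 regions of all 6 clones were tested in limma's fit. EP300-KO was below WT in 6 of the 51, with 4 of the 6 at FOXO1, and above it in none. This stands beside 3.36% lower of the 17346 regions of all 6 clones tested. The median log2 difference of the 51 was -0.24, against 0.08 over those 17346. In CREBBP-KO against WT none of the 51 passed the threshold, and their median was 0.10.

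Among B-lineage factor genes the chosen regions were unevenly spread. EBF1, a factor that specifies the B lineage, had 11 of 40, and BACH2, a repressor that holds back plasma-cell differentiation, had 9 of 28. ETS1 had 3 of 16 and IKZF3 1 of 18, whereas PAX5, which maintains B-cell identity, had 0 of 20 and IKZF1 0 of 10. The largest of the BACH2 regions, chr6:90829451-90831104, had 1052 and 721 bases in WT and 1257 and 1618 in CREBBP-KO. At chr6:90885444-90886661, also in BACH2, the values were 778 and 545 in WT and 893 and 1214 in CREBBP-KO. In both BACH2 regions the CREBBP-KO clones lay above the WT clones. The EBF1 regions were smaller, for example chr5:158475346-158476129 with 482 and 452 bases in WT and 726 and 499 in CREBBP-KO.

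With the chosen regions left out, EP300-KO had 53.3% of the WT covered length around BACH2, 68.9% around EBF1, 77.5% around ETS1, 80.4% around PAX5, 79.1% around IKZF1 and 93.6% around IKZF3. CREBBP-KO had 101.3% around BACH2 and 104.2% around EBF1. Of 85 regions of all 6 clones tested around the 6 genes, 5 were lower in EP300-KO and 0 higher in limma's fit, with a median log2 difference of -0.08. The order of these shares did not fully follow the number of chosen regions, as IKZF3, with 1, lay above PAX5 and IKZF1, with none. HLA-DRA, with its 1 eligible region not chosen, stood at 44.1% in EP300-KO and at 48.5% in CREBBP-KO.

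**Figure D4:**
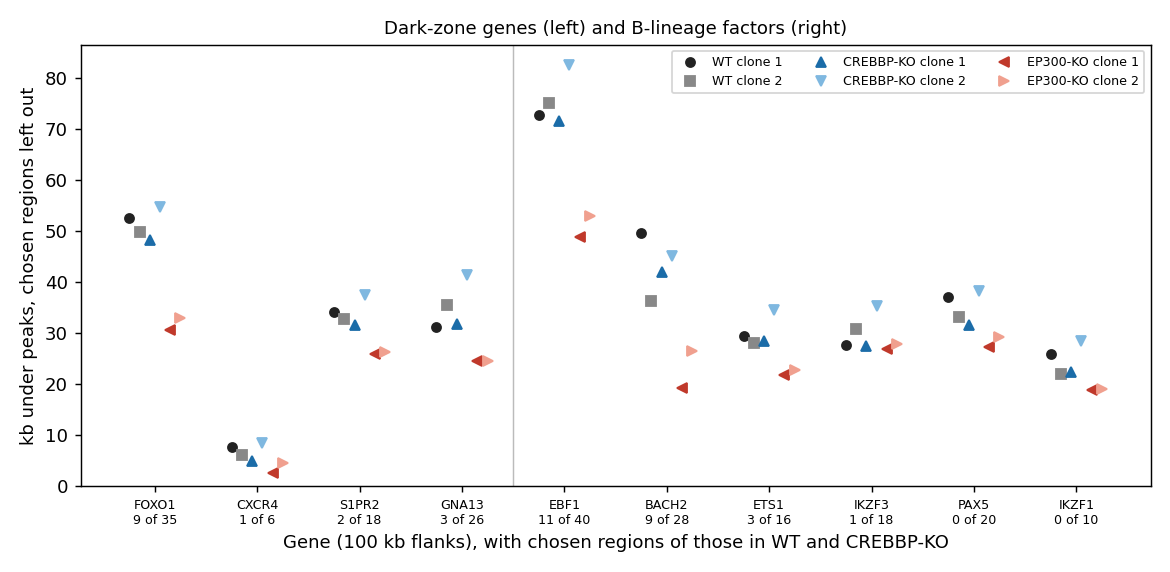
Kilobases under peaks within 100 kb of each gene with the chosen regions left out (vertical axis), 1 symbol per clone, for dark-zone genes (left of the line) and B-lineage factors (right). Below each gene stand its chosen regions of all those with WT and CREBBP-KO peaks. EP300-KO symbols lie farthest below WT in proportion at CXCR4 and BACH2. At IKZF3 EP300-KO clone 2 lies within the WT range and clone 1 just below it.

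In other programmes single regions were chosen. At CD83, a light-zone and activation marker, chr6:14122404-14122796 had 393 and 212 bases in WT and 182 and 264 in CREBBP-KO. Outside this region the locus kept 37.0% of the WT covered length in EP300-KO and 30.4% in CREBBP-KO. CIITA, the master regulator of MHC class II genes, had 1 of 15 chosen (chr16:11042849-11043274), while HLA-DRA and CD74 had none. At LMO2, a germinal-centre transcription cofactor gene, chr11:33916761-33917755 had 841 and 820 bases in WT and 448 and 995 in CREBBP-KO. BCL6, IRF8, MYC, CD40 and CD79A had none.

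Regions that kept a peak in all 6 clones but lay near a chosen one were then examined, since the rule did not use their own peaks. They were found through peaks missing from the same EP300-KO libraries and lie in the same neighbourhoods, so they are not independent of the choice. Covered bases were compared with limma on a log2 scale, after each clone was centred on its median over regions of all 6 clones. The fit drew on 48876 merged regions, 21911 of them in all 6 clones, beside 47344 and 21244 on chromosomes 1 to 22. It thus also held regions outside these chromosomes, where none could be chosen. Over all 19860 regions tested, EP300-KO was below WT in 1217 (6.13%) and above it in 241 at an adjusted p under 0.05. In CREBBP-KO against WT 2 (0.0101%) were lower and none higher, with 1753 at an unadjusted p under 0.05. Without a trend of the spread on covered length these counts were 36 and 22, and without WT clone 2 they were 31 and 208. In CREBBP-KO against EP300-KO 1432 (7.21%) were higher. Of the 1818 chosen regions 677 passed the filter on low values and 493 of these were called lower in EP300-KO, a count that follows from the choice. The 1217 lower regions became 536 without WT clone 1 and 544 without WT clone 2, and the 1432 became 305 without either CREBBP-KO clone and 926 without EP300-KO clone 1.

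Of 1980 tested neighbours within 10 kb of a chosen region, 195 (9.85%) were lower in EP300-KO and 4 were higher. Of the other 15366 regions of all 6 clones, 388 (2.53%) were lower and 173 higher. Leaving out 1 clone moved both shares, to 4.56% and 0.897% without WT clone 1, 4.12% and 0.932% without WT clone 2, 5.52% and 1.42% without CREBBP-KO clone 1, 6.04% and 1.46% without CREBBP-KO clone 2, 6.38% and 1.32% without EP300-KO clone 1, and 12.7% and 2.90% without EP300-KO clone 2. In each of these fits the lower share was larger among the neighbours. The neighbours stayed those found with the peaks of all 6 clones, so these fits are not independent of the choice. Without WT clone 2 the higher calls rose to 23 among the neighbours and to 286 among the others, where they then outnumbered the 141 lower ones. The median log2 difference between EP300-KO and WT was -0.13 for the neighbours and 0.10 for the others. By clone the neighbours' median deviation from WT was -0.13 and -0.08 in EP300-KO clones 1 and 2, and 0.13 and 0.02 in CREBBP-KO clones 1 and 2. Without centring, which moved the median of all regions from 0.06 to -0.14, the neighbours stood at -0.33 and the others at -0.10.

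The neighbours were longer than the other regions, with a median WT covered length of 1585.5 against 1062 bases. Within classes of WT covered length, a split added after the data were seen, 5.22% of neighbours and 1.19% of others were lower at 500 to 1000 bases, 13.1% and 3.30% at 1000 to 2000, and 10.8% and 4.77% above 2000. Under 500 bases none was called in either. In CREBBP-KO against WT limma called none of the neighbours (128 at an unadjusted p under 0.05), and their median was 0.07. Without the spread trend 1 was called lower, and without WT clone 2, 1 was lower and 23 were higher. Near the 294 regions of the mirror pattern, 3 of 180 tested regions were lower in EP300-KO and 2 higher, with a median of 0.15. The mirror pattern was defined by peaks missing from CREBBP-KO. In CREBBP-KO against WT none of these 180 was called, but their median was -0.09 and 62.8% lay below 0. Of the neighbours of the chosen regions, 62.7% lay below 0 in EP300-KO against WT. A lean towards the genotype used for the choice was thus seen near both sets.

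Windows of 100 kb were compared in the same way, with the bases of the chosen regions left out. They were grouped by peaks missing from the same EP300-KO libraries, so the groups are not independent of the values compared. Of 6929 windows tested, EP300-KO was below WT in 262 (3.78%) and above it in 65. Windows with at least 1 chosen region numbered 1019, with 128 lower, 1 higher and a median log2 difference of -0.25. Among the 149 windows with at least 3, 44 were lower and none higher, with a median of -0.47. The 5910 windows without one had 134 lower and 64 higher, with a median of 0.05. The number of lower windows depended on single clones. It was 19 without EP300-KO clone 1, 136 without EP300-KO clone 2, 29 without CREBBP-KO clone 1, 65 without CREBBP-KO clone 2, 144 without WT clone 1 and 182 without WT clone 2, and it was 39 without centring. Without WT clone 2 the higher windows rose to 164, with 106 lower and 150 higher in windows without a chosen region and 76 lower and 14 higher in those with at least 1.

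**Figure D5:**
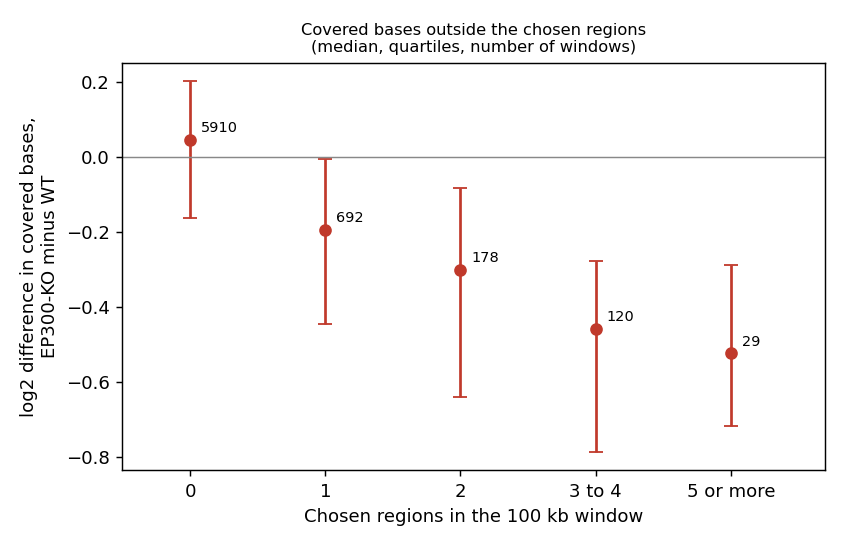
Log2 difference in covered bases between EP300-KO and WT per 100 kb window, chosen regions left out, by how many chosen regions the window held. Points are medians, bars run from the lower to the upper quartile over windows, and the number of windows stands beside each point. The median goes from 0.05 in windows without a chosen region to -0.52 in the 29 windows with 5 or more. Grouping and values come from the same EP300-KO peak lists and are not independent.

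Not all windows dense in chosen regions passed the threshold in limma's fit. Of 13 windows with 6 or more, 3 were lower past it. In each of the 13, both EP300-KO clones had fewer covered bases than both WT clones, as in 53.4% of tested windows. The log2 differences of the 13 ran from -3.21 to -0.02. The window chr7:22400001-22500000, with 8 chosen regions, had 22115 and 19628 bases in WT, 17019 and 19647 in CREBBP-KO and 11223 and 11553 in EP300-KO outside them (log2 difference -0.68 ± 0.07 SE, adjusted p = 0.0202 in limma's fit). The window chr3:71400001-71500000, with 7, had 16475 and 15430 bases in WT, 13677 and 17848 in CREBBP-KO and 7258 and 8744 in EP300-KO (-0.81 ± 0.11 SE, adjusted p = 0.0288). In both windows the EP300-KO clones lay below the other 4. The smallest log2 difference of the 13 was -0.02 ± 0.14 SE (adjusted p = 0.937 in limma's fit, after centring). It was at chr4:74400001-74500000, also with 7, which had 14896 and 16596 bases in WT and 13659 and 13538 in EP300-KO.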

How the data were processed

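H3K27ac ChIP-seq peak lists of 6 clones were used, and the 6 input libraries entered only through them. Cells were fixed in 1% formaldehyde, and fragments of 200 to 500 bp were read as 150 bp pairs, per the labels' protocols. CASAVA 1.8, Bowtie2 2.1.0, SAMtools 0.1.19 and build hg19 are named in the submitters' processing notes. The peak caller was not given in these sources. Peaks were called for each library against its input, without pooling, per the file headers. The deposited start and end are genome positions, with starts read as counted from 0, which can be off by 1 base. The deposited score of each peak is the authors' own value of unstated meaning and served here to rank the peaks of 1 list.

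limma 3.58.1 (R 4.3.3) was fitted to log2(bases + 100), a scale that understates changes of short regions. Features needed 500 bases (windows: 1000) in 2 or more clones, 1 estimate of the spread served all 6 clones, and p-values were Benjamini-Hochberg adjusted over all features. The fit was first run without and then with a trend of the spread on covered length. The second is reported because it gives the counts reported earlier for these data, a choice made with both outcomes known. The first called 1057 regions lower and 213 higher in EP300-KO against WT, and 104 windows lower. P-values measure the spread between clones, and an exact permutation test of 2 clones against 2 cannot go below p = 0.333. Other steps used Python 3.11.15.

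Regions named were the 10 with most covered bases in their weakest clone, the 5 with the best weakest score percentile, the 3 stretches with most members, those at the edge of the rule, and those within 100 kb of listed genes. Gene places are general knowledge at a step of 10 kb, with chromosomes checked against the RefSeq GRCh38.p14 table (66 of 66 matched). For 61 of the 66 both gene ends were offset alike from that table, within a tolerance of 20 kb. Of the genes named here, PRDM1, CIITA, IKZF1 and PTPRQ did not meet this, so the counts around them are less certain. The regions and gene lists were chosen with earlier results of these data known. No sequence was printed, because a genome of this build was not used here. Some of the genes first listed are not reported here.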

Additional observations from a re-analysis of the deposited data

How the results depend on the processing

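The number of regions that met the rule, 1818, was 860 with gaps of 500 bases joined and 553 with gaps of 2000. It was 45 with presence from the upper 50% of each list, 1094 with lists of equal length (1064 of the 1818 overlapped one of these), and 1018 with no EP300-KO peak within 1000 bases. Leaving out single clones gave 2139 to 3318, the highest without CREBBP-KO clone 1 and 2838 without EP300-KO clone 2. With joined gaps of 500 bases, the upper 75% of each list and equal lists, the median WT covered length was 452, 550.5 and 435.5 bases (303.5 to 392.75 without single clones). The share in WT domains was 20.5%, 23.6% and 23.5% (23.7% to 30.7%), and 47.1% with domains of 5 kb. The share within 10 kb of a region of all 6 clones, 73.7% (69.6% of eligible regions), was 55.7% and 69.5% with joined gaps and the upper 75% (74.4% to 76.4% without single clones).

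In limma's fits, leaving out single clones gave 536 to 1434 lower regions in EP300-KO against WT (536 without WT clone 1, 544 without WT clone 2). It gave 0 to 31 lower in CREBBP-KO against WT (with 208 higher where 31 were lower, without WT clone 2), and 305 to 1550 higher in CREBBP-KO against EP300-KO (305 without either CREBBP-KO clone, 926 without EP300-KO clone 1). CREBBP-KO against WT had 36 lower without the spread trend and 0 with only the 4 clones compared. The share of neighbours lower in EP300-KO was 15.5% without centring, 6.03% with only the 4 clones and 4.12% to 12.7% without single clones. It exceeded that of the other regions in all 12 alternatives, by 3.71 to 5.09 times. Lower windows numbered 439 with a pseudocount of 1000, 39 without centring, 104 without the spread trend, 90 with only the 4 clones and 19 to 182 without single clones. The neighbours and the windows with a chosen region stayed the same in every alternative fit. They were found with the peaks of all 6 clones, also where a clone was left out of the fit. These alternatives are therefore not independent of the choice. A lone clone of a genotype was assumed to vary like the others. The spread trend and the length classes were alternatives added after seeing the data. No paired analysis was possible because the labels give no shared replicate numbers. Unknown depth means that a missing peak does not show that acetylation is absent.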
